A study of Homo sapiens with 8 samples.

Results

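This account describes 40 genes of the cytosolic and mitochondrial protein folding machinery in 8 RNA-seq libraries from prostate cancer cell lines. The genes were taken by name from the 33221 genes of the series' expression table. All 40 were present and all 40 were among the 22727 genes with enough reads to be tested. They were sorted by role into HSF1, the regulator, 13 inducible HSF1 targets, 10 constitutive HSP70 and HSP90 genes and cochaperones, 3 mitochondrial chaperones, 8 subunits of the TCP1 ring and 5 prefoldin subunits.

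Heat shock factor 1, encoded by HSF1, is held inactive by chaperones in unstressed cells. When unfolded protein draws the chaperones away, it forms trimers, binds heat shock elements in the promoters of its targets and raises their transcription. The inducible targets include HSP70 proteins, which bind exposed hydrophobic stretches of unfolded protein, the DNAJ proteins that deliver clients to them, and BAG3 and HSPH1, which exchange their nucleotide. HSP90 proteins take over partly folded clients such as kinases and steroid receptors with the help of cochaperones. The TCP1 ring, also called CCT or TRiC, folds actin and tubulin inside a closed chamber, and prefoldin hands it those clients. Both are made at a steady rate in growing cells. Tumour cells are known to depend on this machinery.

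PC3 and DU145 are human prostate carcinoma lines. EphA2, encoded by EPHA2, is a cell surface kinase that binds ephrins on neighbouring cells. The PC3 EphA2 KO group consisted of PC3 cells 72 h after infection with lentivirus carrying Cas9 and a guide against EphA2, and the PC3 control group of PC3 cells given lentivirus with a guide that targets no gene. The DU145 EphA2 OE group consisted of DU145 cells 48 h after Lipofectamine transfection with an EphA2 expression plasmid, and the DU145 control group of DU145 cells transfected with a control plasmid. Each group had 2 libraries, and the labels mention no selection of clones and no heat treatment. The KO and OE groups therefore differ in line, in delivery and in time, and these cannot be told apart. Whether the 2 libraries of a group came from different cultures is not stated, and the p-values therefore reflect the spread between libraries alone.

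Total counts were 57571919 to 60951530 per library, and mitochondrial genes took 7.80% to 8.51% of them. Levels within a gene are given as CPM, counts scaled to a common library total. EPHA2 stood at 204 and 185 CPM in the KO libraries against 265 and 269 in the PC3 controls. It stood at 343 and 386 CPM in the OE libraries against 293 and 296 in the DU145 controls. EPHA2 RNA was therefore still present in the KO libraries, and RNA-seq does not measure the EphA2 protein. CTNNA1, the alpha-catenin gene known to be deleted in PC3 cells, was read at 434 ± 45.1 CPM in the libraries labelled PC3 and at 440 ± 45.4 CPM in those labelled DU145 (mean ± SD, n = 4 each), so the line names are used here as labels. KRT8 and KRT18, epithelial keratins, lay between 363 and 772 CPM in every library. PTPRC, PECAM1 and PDGFRB, which mark blood, endothelial and stromal cells, lay between 0 and 0.596 CPM. The stromal collagen genes COL1A1 and COL3A1 lay between 4.05 and 7.36 CPM and between 0.0678 and 0.316 CPM. In bulk RNA, fewer cells with a transcript and less transcript per cell cannot be told apart. DU145 EphA2 OE replicate 2 stood apart from the other 7 libraries in these genes. Among 8261 genes with a mean above 20 CPM, the median absolute log2 difference between replicates was 0.19 in the OE pair and 0.09 to 0.12 in the other pairs, and over the 40 chaperone genes it was 0.32 against 0.06 to 0.08.

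Since the heat shock element is where HSF1 binds, the upstream sequences of 5 genes are shown: the HSP70 genes HSPA8, HSPA1A and HSPA1B, the abundant inducible target HSP90AA1, and CCT8, a ring subunit, for contrast. They are the 250 bases before an annotated start in RefSeq (GRCh38.p14), read 5′ to 3′ on the gene's own strand. Capitals mark matches to a pair of inverted heat shock units, GAANNTTC or TTCNNGAA, or to a run of 3 units, GAANNTTCNNGAA or TTCNNGAANNTTC, in which both kinds of pair overlap and share the middle unit. The pairs read the same on both strands, and both strands were searched. The windows are HSPA8 at chr11:123062137-123062386 (minus strand), HSPA1A at chr6:31815293-31815542 (plus strand), HSPA1B at chr6:31827488-31827737 (plus strand), HSP90AA1 at chr14:102087045-102087294 (minus strand) and CCT8 at chr21:29073649-29073898 (minus strand).
HSPA8: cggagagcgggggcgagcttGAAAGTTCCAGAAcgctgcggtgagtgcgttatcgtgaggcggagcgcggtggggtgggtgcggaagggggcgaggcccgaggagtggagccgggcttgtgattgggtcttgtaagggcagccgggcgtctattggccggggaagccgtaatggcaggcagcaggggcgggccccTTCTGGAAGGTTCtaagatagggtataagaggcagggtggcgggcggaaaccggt
HSPA1A: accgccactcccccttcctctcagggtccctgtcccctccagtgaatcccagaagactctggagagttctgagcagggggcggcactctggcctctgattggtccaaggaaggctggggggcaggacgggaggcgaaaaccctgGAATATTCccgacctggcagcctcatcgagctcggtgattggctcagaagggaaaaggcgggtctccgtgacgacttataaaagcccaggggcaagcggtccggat
HSPA1B: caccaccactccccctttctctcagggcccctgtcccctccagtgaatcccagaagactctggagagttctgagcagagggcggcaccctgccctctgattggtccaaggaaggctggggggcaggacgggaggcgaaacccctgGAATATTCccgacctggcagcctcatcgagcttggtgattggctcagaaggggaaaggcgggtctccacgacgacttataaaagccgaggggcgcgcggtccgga
HSP90AA1: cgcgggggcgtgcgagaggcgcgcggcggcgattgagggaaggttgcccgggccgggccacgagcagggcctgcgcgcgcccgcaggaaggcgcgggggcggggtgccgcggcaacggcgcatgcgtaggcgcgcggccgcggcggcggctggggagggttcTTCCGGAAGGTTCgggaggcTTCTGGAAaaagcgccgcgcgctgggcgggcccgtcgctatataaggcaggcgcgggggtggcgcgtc
CCT8: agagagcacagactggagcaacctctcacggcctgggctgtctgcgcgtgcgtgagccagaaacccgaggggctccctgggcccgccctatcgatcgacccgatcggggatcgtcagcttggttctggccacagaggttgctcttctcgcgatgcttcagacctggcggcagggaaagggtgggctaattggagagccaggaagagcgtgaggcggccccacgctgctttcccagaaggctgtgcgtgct

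The HSPA8 window held 4 pairs, joined in 2 runs of 3 units, starting between positions -230 and -50 counted from the annotated start. HSP90AA1 held 3 pairs and 1 run of 3 units in the window shown and 0 of either in the window of its other start, at chr14:102139750-102139999, HSPA1A and HSPA1B each held 1 pair, and CCT8 held 0. The HSPA1A and HSPA1B windows were 93.6% identical, and their reading frames were 99.8% identical (1919 of 1923 bases), so reads of one copy can be counted for the other and the division between the copies is uncertain. A window was found for 35 of the 40 genes. At least 1 pair was present in 11 of 13 inducible targets (84.6%), 3 of 8 constitutive genes (37.5%), 1 of 3 mitochondrial genes, 2 of 7 ring subunits (28.6%) and 1 of 4 prefoldin subunits, against 3813 of 27305 RefSeq genes (14%). A run of 3 units was present in 7 of the 35 windows' genes, namely HSPA6, CHORDC1, HSP90AA1, HSPA8, HSP90AB1, DNAJB6 and HSPD1, against 0.557% of RefSeq genes. Genes with several starts had several windows and could match in any of them. A match describes letters only.

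Transcript levels across genes were compared as FPKM, which corrects for transcript length and library depth. The highest mean levels over the 8 libraries were those of HSP90AB1 at 948 ± 54.8 FPKM (SD, n = 8) and HSP90AA1 at 499 ± 77.7 FPKM, the constitutive and inducible cytosolic HSP90. HSPA8, the constitutive HSP70, followed at 252 ± 93.7 FPKM. The inducible HSP70 genes were far below it, at 39.2 ± 10.5 FPKM for HSPA1A, 36.8 ± 10.1 for HSPA1B and 0.602 ± 0.234 for HSPA6, which is known to be nearly silent without stress. The 8 ring subunits share one complex in equal number, and their mean FPKM ran from 37.1 in TCP1 to 158 in CCT3, a ratio of 4.25. HSF1 itself stood at 7.23 ± 0.839 FPKM.

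**Figure D1:**
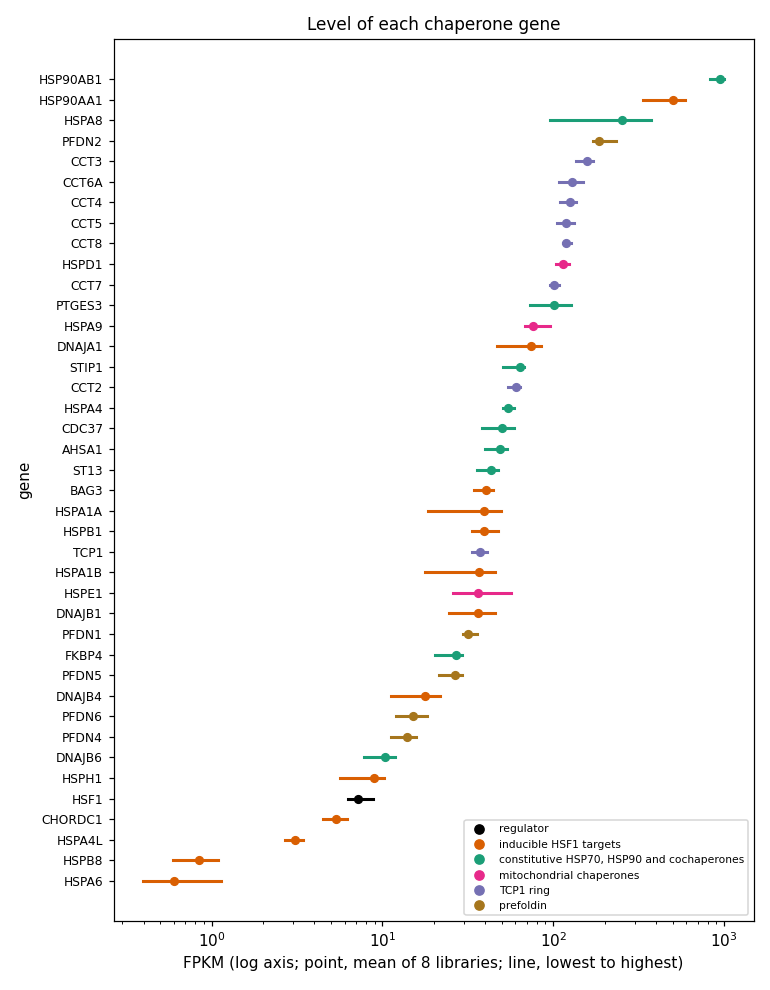
FPKM of each chaperone gene on a log axis, ordered by mean. Points are means of the 8 libraries, lines run from the lowest to the highest library, and colours give the role. HSP90AB1 at 948 FPKM and HSPA6 at 0.602 are the ends of the range, and the HSPA8 line is long while that of CCT8 is short.

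The ratio of the highest to the lowest CPM over the 8 libraries had a median of 1.91 in the inducible targets (range 1.29 to 2.88), 1.46 in the constitutive genes (1.21 to 4.06), 1.28 in the TCP1 ring (1.12 to 1.43) and 1.35 in prefoldin (1.26 to 1.49). The median over the 8261 genes above 20 CPM was 1.36. HSPA8 gave the 4.06, and CCT8, a ring subunit, the 1.12. These ratios rested in part on OE replicate 2. Without it, a choice made after seeing the data, the medians were 1.33 in the inducible targets, 1.19 in the constitutive genes, 1.17 in the ring and 1.34 in prefoldin, against 1.30 over the 8261 genes, and the HSPA8 ratio was 2.26.

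The first question was whether these genes differed between the PC3 EphA2 KO and PC3 control libraries. Over all genes, edgeR's quasi-likelihood test with Benjamini-Hochberg adjustment called 6 of 22727 (0.0264%), and 0 of the 40 chaperone genes. DESeq2, which called 0.836% of all genes, also called 0 of the 40, and 0 had an unadjusted p under 0.05, against 6.62% of all genes. The inducible targets had a median log2 fold change of 0.10 with 9 of 13 higher in the KO libraries, the constitutive genes 0.03 with 7 of 10 higher, the TCP1 ring 0.05 with 7 of 8 higher and prefoldin -0.01 with 2 of 5 higher. All genes tested had a median of -0.00206, with 49.3% higher. The KO libraries lay wholly above the controls in 20 of the 40 genes and wholly below in 5, against 21.4% and 21.6% of all genes.

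HSF1 stood at 55.2 and 46.9 CPM in the KO libraries and at 46.8 and 40.1 CPM in the PC3 controls. The ranges nearly touched, and the log2 fold change was 0.23 ± 0.13 (SE; adjusted p = 0.789 in edgeR). 

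HSPA8 had the largest fold in PC3 among the genes above 20 CPM. It was read at 1710.0 and 1773 CPM in the KO libraries and at 962 and 987 CPM in the controls. The pairs did not overlap and each was tight, with means 1.79-fold apart, and the log2 fold change was 0.84 ± 0.42 (adjusted p = 0.759 in edgeR). The spread estimate in that fit is shared with the OE pair, which disagreed in this gene. With only the 4 PC3 libraries in the fit, HSPA8 was called at 0.84 ± 0.04 (adjusted p = 0.0449, with 0.0238% of all genes called). It was also called at 0.84 without OE replicate 1 (adjusted p = 0.0343, 0.105% of all genes called) and without OE replicate 2 (adjusted p = 0.0334, 0.109%). Against all 4 control libraries as 1 group, an alternative chosen after seeing the data, its log2 fold change was 0.22 (adjusted p = 0.999), since the DU145 controls lay above the KO libraries, and against the DU145 controls alone it was -0.21 (adjusted p = 0.976). Its direction therefore depended on the reading of the control columns, which was by convention. The table counts HSPA8 apart from overlapping small nucleolar RNA genes such as SNORD14C in its introns, and rows of its pseudogenes held at most 0.245% of the reads.

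The inducible HSP70 copies showed the same order. HSPA1A was at 132 and 133 CPM in the KO libraries and 93.0 and 90.3 CPM in the controls. HSPA1B was at 128 and 121 CPM against 89.7 and 83.6 CPM. Neither gene's groups overlapped, and the log2 fold changes were 0.53 ± 0.32 and 0.52 ± 0.35 (adjusted p = 0.805 and 0.825 in edgeR). HSPA6, the strictly inducible HSP70, was at 1.45 and 3.17 CPM against 1.26 and 1.10 CPM. Its log2 fold change of 0.97 ± 0.44 (adjusted p = 0.756) rested on KO replicate 2, which lay above the other 7 libraries.

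The other inducible targets lay closer together. HSPH1, a nucleotide exchange factor of HSP70, was at 92.9 and 90.5 CPM in the KO libraries and 88.4 and 88.0 CPM in the controls. HSPB1, the small heat shock protein HSP27, was at 90.7 and 79.1 CPM against 73.2 and 72.0 CPM. BAG3, which links HSP70 to autophagy, was at 144 and 137 CPM against 119 and 124 CPM. In these genes the KO pair was the higher one without overlap, with log2 fold changes of 0.06 ± 0.21, 0.23 ± 0.12 and 0.21 ± 0.11. DNAJB1, the main DNAJ partner of inducible HSP70, was at 150.3 and 163 CPM against 141 and 162 CPM, and DNAJB4, its relative, at 76.6 and 77.0 CPM against 79.8 and 74.5 CPM. These pairs overlapped, with log2 fold changes of 0.05 ± 0.28 and -0.01 ± 0.18. HSP90AA1 was at 3075 and 3079 CPM against 2922 and 2813 CPM, a log2 fold change of 0.10 ± 0.17 with no overlap.

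Constitutive and mitochondrial genes other than HSPA8 differed little in PC3. HSP90AB1 was at 3528 and 3527 CPM in the KO libraries and 3298 and 3253 CPM in the controls, a log2 fold change of 0.11 ± 0.09 without overlap. HSPA4, a large HSP70 relative, was at 352 and 329.9 CPM against 305 and 319 CPM, a log2 fold change of 0.13 ± 0.08, also without overlap. HSPD1 and HSPE1 form the mitochondrial folding chamber and share a promoter region. HSPD1 was at 547 and 553 CPM against 559.9 and 521 CPM, and HSPE1 at 75.7 and 82.3 CPM against 76.1 and 64.8 CPM. Both overlapped, with log2 fold changes of 0.03 ± 0.11 and 0.16 ± 0.28. HSPE1 overlaps HSPD1 and a read-through transcript in the table, so its counts can be divided among them.

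In the TCP1 ring and prefoldin, log2 fold changes in PC3 ran from -0.06 to 0.14. The highest was CCT2, at 312 and 317 CPM in the KO libraries and 291 and 279 CPM in the controls (0.14 ± 0.10, adjusted p = 0.83 in edgeR). The lowest was CCT5, at 750.2 and 772 CPM against 799.8 and 790.0 CPM (-0.06 ± 0.13, adjusted p = 0.978). The KO pair lay wholly above the controls in CCT2 and wholly below in CCT5. Prefoldin's PFDN1 was at 77.1 and 78.2 CPM against 82.2 and 74.1 CPM, and PFDN2 at 124 and 129.6 CPM against 133 and 131 CPM.

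**Figure D2:**
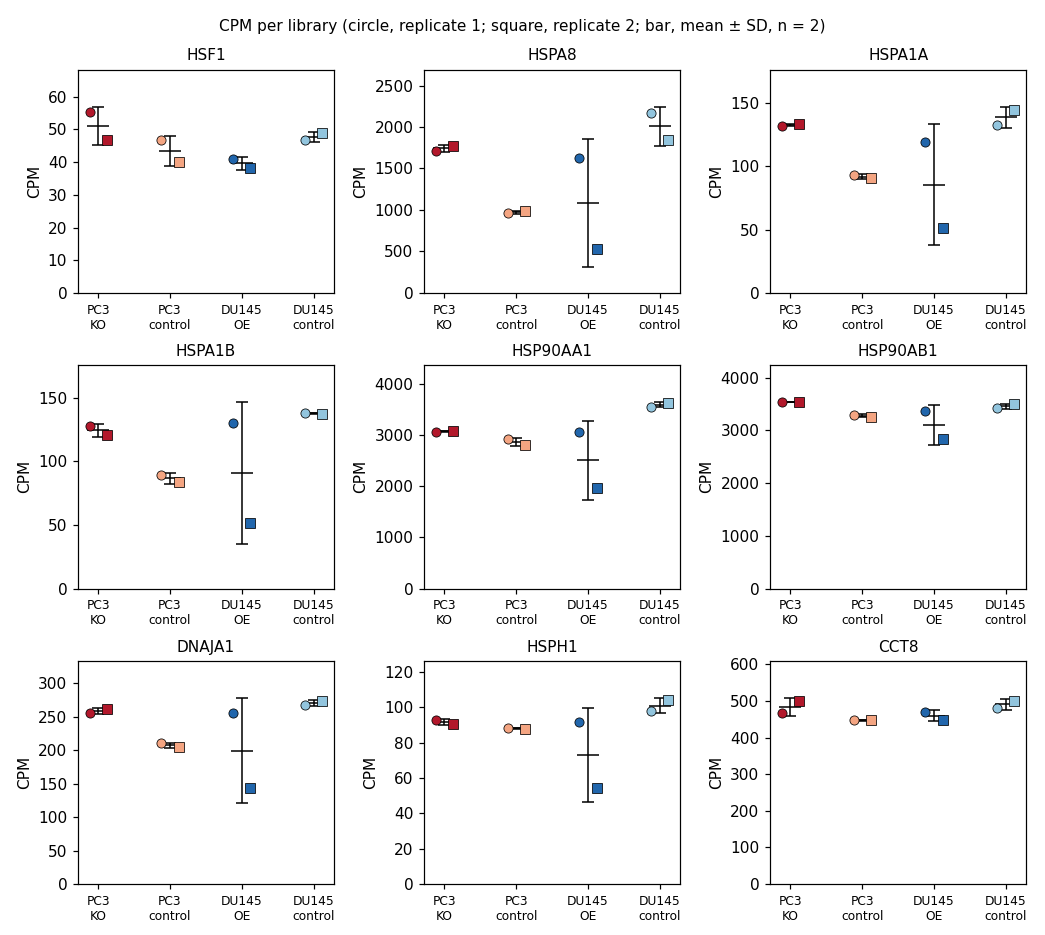
CPM (vertical axis, from 0) of 9 genes in the 4 groups. Circles are replicate 1, squares replicate 2, and bars the mean ± SD (n = 2). In HSPA8, HSPA1A and HSPA1B the PC3 control pair lies below the KO and DU145 control pairs, and OE replicate 2 lies below every other library, while CCT8 is nearly level.

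The second question was whether these genes differed between the DU145 EphA2 OE and DU145 control libraries. edgeR called 9 of 22727 genes (0.0396%) and 0 of the 40, and DESeq2 called 1.36% of all genes and 0 of the 40. At an unadjusted p under 0.05 there were 4 of the 40, against 9.06% of all genes: HSP90AA1, DNAJB4 and HSPA4 lower and PFDN2 higher in the OE libraries. The inducible targets had a median log2 fold change of -0.27 with 12 of 13 lower, the constitutive genes -0.18 with 8 of 10 lower, the TCP1 ring -0.12 with 8 of 8 lower and prefoldin 0.20 with 4 of 5 higher. All genes tested had a median of 0.00868, with 51.1% higher. The OE libraries lay wholly below the controls in 20 of the 40 genes and wholly above in 4, against 18.2% and 19.1% of all genes.

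The 2 OE libraries differed from each other in these genes. The inducible targets had a median deviation from the mean of the DU145 controls of -0.08 on the log2 scale in OE replicate 1 and of -0.68 in OE replicate 2. For the TCP1 ring it was 0.00236 and -0.29, for the constitutive genes -0.00705 and -0.27, and for prefoldin 0.18 and 0.10. OE replicate 2 was the lowest of all 8 libraries in 27 of the 40 genes (67.5%), against 16.0% of all genes tested. These were 11 of 13 inducible targets, 7 of 10 constitutive genes, 6 of 8 ring subunits and 0 of 5 prefoldin subunits. The 40 genes took 1.34% of all counts in that library and up to 1.80% in the others. Its total count was 57789104 and its mitochondrial share 8.32%, and their part in the result was not tested.

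**Figure D3:**
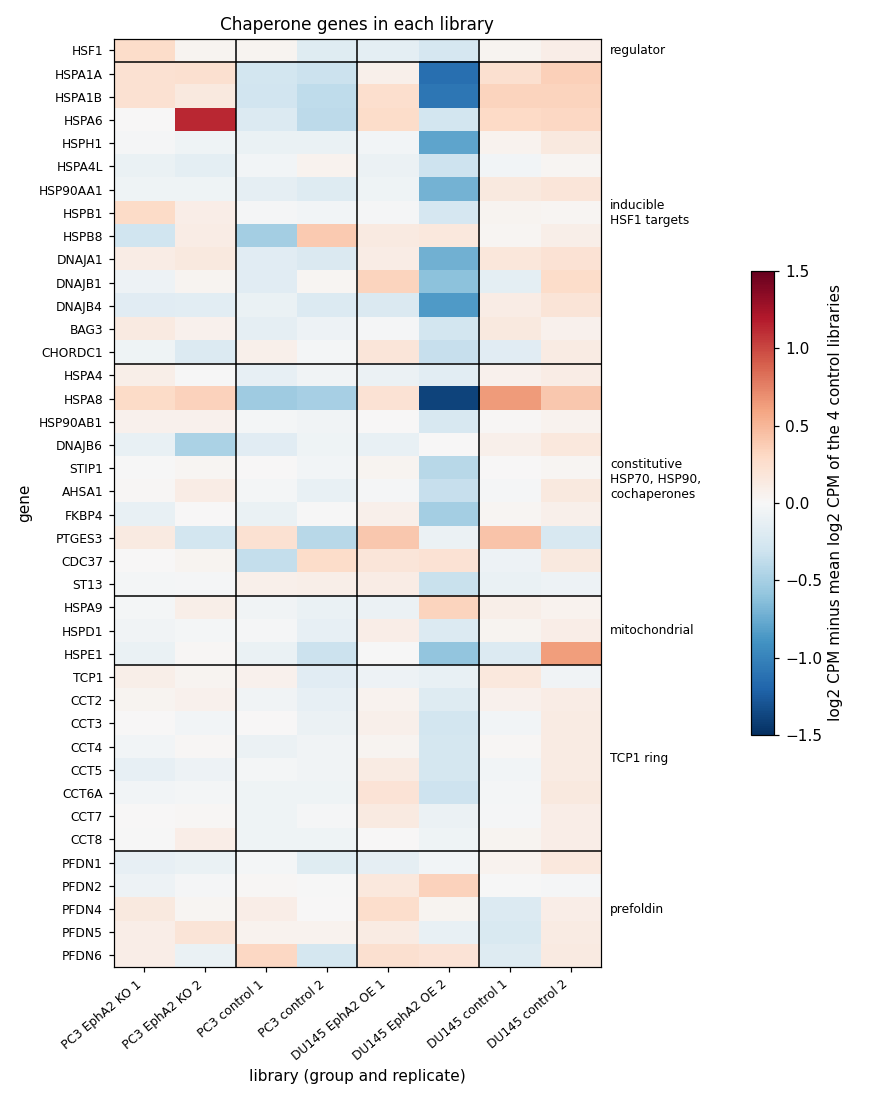
Log2 CPM of each gene in each library minus its mean over the 4 control libraries (colour), with genes sorted by role and libraries by group. In OE replicate 2, 12 of 13 inducible targets and 8 of 8 ring subunits lie below that mean, with medians of -0.61 and -0.23. PC3 control replicate 1 also has 12 of 13 inducible targets below it, with a median of -0.14. In PC3 control replicate 2, 8 of 8 ring subunits lie below it, with a median of -0.07. The single dark red cell is HSPA6 in KO replicate 2.

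HSF1 was at 41.1 and 38.3 CPM in the OE libraries and 46.7 and 48.8 CPM in the DU145 controls. Both OE libraries were below both controls, and the log2 fold change was -0.27 ± 0.13 (adjusted p = 0.595 in edgeR). 

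HSPA8 was at 1628 and 535 CPM in the OE libraries and 2174 and 1842 CPM in the controls. Replicate 1 lay just under the controls, and replicate 2 was 3.75-fold below their mean. The log2 fold change was -0.89 ± 0.42 (adjusted p = 0.583 in edgeR). It was -1.90 without OE replicate 1 and -0.30 without OE replicate 2. With the PC3 controls in place of the DU145 controls it was 0.15 (adjusted p = 0.995). HSPA1A was at 119 and 51.5 CPM against 133 and 144 CPM, and HSPA1B at 130.2 and 51.7 CPM against 138 and 138 CPM. The low value was again that of replicate 2, and the log2 fold changes were -0.70 ± 0.32 and -0.60 ± 0.35 (adjusted p = 0.575 and 0.657). HSPA6 was at 1.75 and 1.20 CPM against 1.77 and 1.79 CPM, a log2 fold change of -0.27 ± 0.43.

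HSP90AA1 was at 3059.7 and 1966 CPM in the OE libraries and 3561 and 3631 CPM in the controls. Both OE libraries were lower, at a log2 fold change of -0.52 ± 0.17 (adjusted p = 0.489 in edgeR, unadjusted p = 0.0195). HSP90AB1 was at 3372 and 2838 CPM against 3414 and 3490.4 CPM, -0.15 ± 0.09 with no overlap. The ratio of HSP90AA1 to HSP90AB1 in FPKM was 0.405 in OE replicate 2, the lowest of the 8 libraries, and at most 0.61. 

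DNAJB4 had the lowest p of the 40 genes in DU145. It was at 73.9 and 47.8 CPM in the OE libraries and 93.0 and 98.2 CPM in the controls, -0.65 ± 0.19 on the log2 scale (adjusted p = 0.45 in edgeR, unadjusted p = 0.00873). Here replicate 1 was also below both controls. DNAJB1 was at 199.8 and 103 CPM against 142 and 192 CPM, so its OE libraries lay on either side of the controls (-0.14 ± 0.28). HSPH1 was at 91.7 and 54.4 CPM against 98.0 and 104 CPM, HSPB1 at 73.5 and 62.2 CPM against 76.0 and 75.4 CPM, and BAG3 at 129.7 and 108 CPM against 145 and 137 CPM. In these genes both OE libraries were below both controls, with log2 fold changes of -0.47 ± 0.21, -0.16 ± 0.12 and -0.24 ± 0.11. HSPA4 was at 313 and 298 CPM against 347 and 360.0 CPM, a low spread within each pair, and its log2 fold change was -0.21 ± 0.08 (adjusted p = 0.524, unadjusted p = 0.0347).

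The mitochondrial genes did not move as a block in DU145. HSPD1 was at 605 and 492 CPM in the OE libraries and 583 and 605.5 CPM in the controls, and HSPE1 at 80.8 and 54.1 CPM against 70.9 and 125 CPM. Both overlapped, with log2 fold changes of -0.12 ± 0.11 and -0.54 ± 0.28, and the HSPE1 controls differed from each other more than from OE replicate 1. HSPA9, the mitochondrial HSP70, named after its values were seen, was the member most raised in OE replicate 2 relative to replicate 1, by 0.43 on the log2 scale.

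In the TCP1 ring, the lowest of 8 log2 fold changes was -0.18 and the highest -0.02. CCT2 was at 314 and 264 CPM in the OE libraries and 316 and 327 CPM in the controls (-0.15 ± 0.10), and CCT5 at 888 and 683 CPM against 792 and 889.5 CPM (-0.10 ± 0.13). CCT2 did not overlap and CCT5 did. Prefoldin held the extremes of both complexes. PFDN2, a prefoldin subunit, was at 146 and 167 CPM against 131 and 129.9 CPM, higher in both OE libraries at 0.26 ± 0.10 (adjusted p = 0.509 in edgeR, unadjusted p = 0.026). PFDN1 was at 76.1 and 81.7 CPM against 86.8 and 93.2 CPM, lower in both at -0.19 ± 0.10 (adjusted p = 0.617).

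The dependence on each OE library was measured by leaving it out. A lone remaining library is then assumed to vary like the other groups. The OE pair differed more than the other pairs in these genes, so calls in these fits cannot settle a difference. Without OE replicate 1, edgeR called 9 of the 40 genes lower, against 376 of 24795 genes in all (1.52%). They were HSPA8, HSP90AA1, HSPA1A, HSPA1B, DNAJA1, HSPH1, DNAJB4, HSP90AB1 and STIP1, with adjusted p from 0.00187 to 0.0453. DNAJA1, a DNAJ partner of HSPA8, and STIP1, which joins HSP70 to HSP90, were named after their values were seen. Without OE replicate 2, 0 of the 40 were called (40 of 24693 genes in all, 0.162%), and the median of the inducible targets was -0.08. The log2 fold change was then -0.22 for HSPA1A, -0.0832 for HSPA1B, -0.23 for HSP90AA1 and -0.37 for DNAJB4. Between the OE libraries, 34 of 40 genes were lower in replicate 2 (85.0%, against 48.5% of all genes). The differences were largest in HSPA8 at -1.60, HSPA1B at -1.33 and HSPA1A at -1.21 on the log2 scale. Genes with at least 1 pair of heat shock units upstream had a median difference of -0.41 (16 of 18 lower). Genes with none had -0.26 (14 of 17 lower), a description of 2 libraries. Of the 18 genes, 11 were inducible targets, a role whose median difference was -0.63. The split by pairs thus overlaps with the split by role, and a part of HSF1 was not tested.

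**Figure D4:**
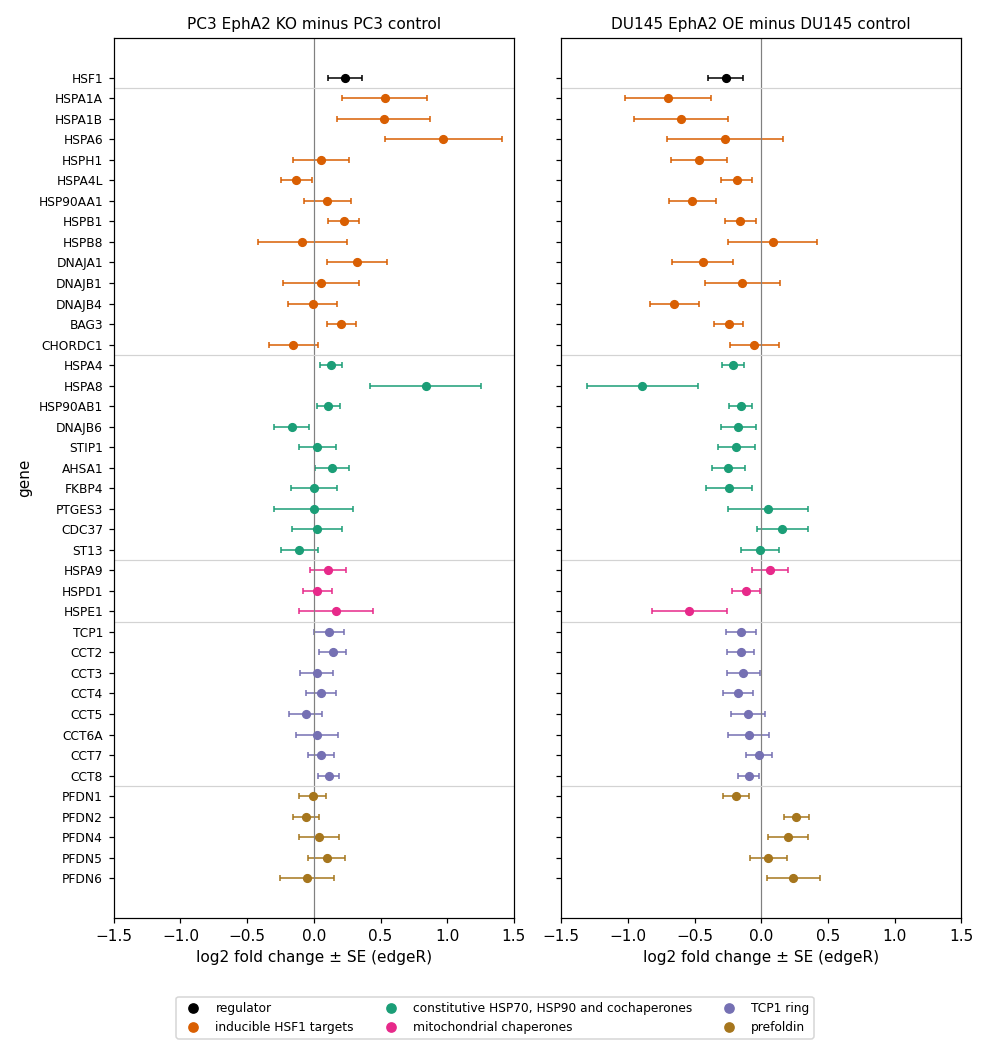
Log2 fold change ± SE from edgeR for each gene in PC3 (left) and DU145 (right), coloured by role. Most inducible targets lie right of 0 in the left panel and left of 0 in the right panel, the ring subunits stay within 0.2 of 0, and 0 genes passed the adjusted threshold in either panel.

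The third comparison was the difference of the responses, KO minus control less OE minus control, which uses all 8 libraries and so shares them with both comparisons above. edgeR called 7 genes in all (0.0308%) and 0 of the 40, and DESeq2 called 1.8% of all genes and 0 of the 40. At an unadjusted p under 0.05 there were 9, against 10.1% of all genes: HSF1, HSPA1A, HSP90AA1, DNAJA1, DNAJB4, BAG3, HSPA4 and HSPA8 with higher values and PFDN2 with a lower one. Among those 9 the widest were HSPA8 at 1.73 ± 0.59 and HSPA1A at 1.23 ± 0.45 on the log2 scale (adjusted p = 0.419 and 0.444). HSPA8 was called in this comparison without OE replicate 1 (2.75, adjusted p = 0.00168) and without OE replicate 2 (1.14, adjusted p = 0.0275). It was the only one of the 40 called without OE replicate 2 (0.377% of all genes), while 8 were called without OE replicate 1 (1.3%). The groups of both lines did not overlap and lay in opposite orders, higher in KO and lower in OE, in 15 of the 40 genes. The share over all genes tested was 5.09%. The order was the other way in PFDN2, a pattern of 5.44% of all genes tested.

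The 2 control groups were compared as well, a comparison of lines, lentivirus against plasmid, and times together. It shares its libraries with the comparisons above. edgeR called 13 genes (0.0572%) and 0 of the 40, DESeq2 called 1.57% of all genes and 0 of the 40, and 1 of the 40 had an unadjusted p under 0.05, against 9.01% of all genes. That gene was HSPA8, at 962 and 987 CPM in PC3 controls against 2174 and 1842 CPM in DU145 controls, a log2 difference of 1.04 ± 0.42 (adjusted p = 0.528). In 33 of the 40 genes the DU145 control mean was higher, and 24 lay wholly higher and 2 wholly lower, against 21.5% and 22.4% of all genes. The inducible targets had a median of 0.21, the TCP1 ring 0.11 with 8 of 8 higher, and prefoldin -0.07. With only the 4 control libraries in the fit, edgeR called 20 genes in all and 0 of the 40. Leaving out an OE library changed the log2 differences little. Without OE replicate 1 they were 1.05 for HSPA8, 0.67 for HSPA1B, 0.60 for HSPA1A and 0.33 for HSP90AA1. Without OE replicate 2 they were 1.04, 0.67, 0.60 and 0.33 in the same order.

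Which control columns belong to which line was read from their column names by convention. With the controls of the lines exchanged, 11 of the 19 genes described library by library changed the sign of their log2 fold change in PC3 and 7 in DU145, with HSPA8, HSPA1B and CCT2 among them in both lines. The median of the inducible targets became -0.11 in PC3 and -0.084 in DU145. Against all 4 controls as 1 group, 5 of the 19 changed sign in PC3 and 0 in DU145. No member was called in either case by edgeR.

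PTGES3, the HSP90 cochaperone p23, was named after its values were seen. Its replicate 1 exceeded its replicate 2 in each of the 4 groups, at 426 and 321 CPM in the KO libraries, 455.5 and 291 in the PC3 controls, 515 and 366 in the OE libraries, and 522 and 329.7 in the DU145 controls. Its log2 fold changes were -0.000606 ± 0.30 in PC3 and 0.05 ± 0.30 in DU145.

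Of 41 further genes of the pathway that are not among the 40, 0 were called in any comparison by edgeR. In PC3, 20 were higher and 21 lower (median -0.000306), and 2 of 41 (4.88%, against 6.62% of all genes) had an unadjusted p under 0.05. They were UXT, a prefoldin relative, at 0.34 ± 0.14 and DNAJA3, a mitochondrial DNAJ protein, at -0.38 ± 0.13. In DU145, 13 were higher and 28 lower (median -0.11), and 5 of 41 were under that level (12.2%, against 9.06%). The 7 further HSP90 cochaperones were all lower, with a median of -0.19, and UNC45A, which folds myosin, was at -0.28 ± 0.08. OE replicate 2 was below both DU145 controls in each of them. OE replicate 1 was below both controls in UNC45A, TTC4, NUDC and PPP5C, between them in PPID and FKBP5, and above both in SUGT1. DNAJA3 was at 123 and 139 CPM in the OE libraries against 80.9 and 85.6 CPM in the DU145 controls, 0.66 ± 0.13 (adjusted p = 0.301, unadjusted p = 0.00112). DNAJC7 at -0.23 ± 0.10 and PDCL at -0.25 ± 0.10 were the remaining ones there besides CRYAB, a small heat shock protein with 29 and 16 counts in the DU145 controls, 4 in KO replicate 2 and 0 in the other 5 libraries. In the difference, 6 of 41 were under that level (14.6%, against 10.1%), and between the controls 4 of 41 (9.76%, against 9.01%). In the difference these were HSPBP1 at 0.46 ± 0.17, UXT, UNC45A, DNAJC7, CRYAB and DNAJA3, and between the controls DNAJB2 at -0.40 ± 0.17, DNAJC7, CRYAB and DNAJA3.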

How the data were processed

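Per the labels' protocols, libraries were made from poly(A) RNA with dUTP marking of the second strand. For each of the 8 libraries the authors deposited raw counts of reads per gene and FPKM values, which are scaled by transcript length and depth. No column was left out (0 unmapped). Per the submitters' processing notes, HISAT2 2.2.1 and StringTie 2.1.6 were used with GRCh38 after cutadapt 1.9, and edgeR and DESeq2 are named too. What each tool did, the annotation and strand use were not given in the sources, so reads of overlapping genes may be divided. Control columns were matched to groups by convention.

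Comparisons used edgeR 4.0.16 (R 4.3.3), the quasi-likelihood test on counts with 4 group means over 8 libraries (4 residual degrees of freedom), filterByExpr (minimum count 10, minimum total 15), TMM factors and a Benjamini-Hochberg adjusted p below 0.05 over all genes tested. SE was obtained by dividing the size of the log2 fold change by the root of the F statistic. CPM are counts scaled to a common TMM-adjusted library total. The scripts were tested on simulated data. Alternatives were DESeq2 1.42.0, other factors, no filter, limma 3.58.1 on log2(FPKM + 1) and log2(FPKM + 0.1), a replicate block, the 4 libraries of a comparison alone, exchanged controls and each library left out. An exact permutation test of 2 against 2 cannot go below p = 0.333. Members and lists were chosen with earlier results of these data known. Values in every library are given for 13 genes fixed by role, for the 6 lowest p in each comparison and for the highest and lowest fold of ring and prefoldin genes.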

Additional observations from a re-analysis of the deposited data

Results flagged for a closer look

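In 15 of the 40 genes both KO libraries lay above both PC3 controls and both OE libraries below both DU145 controls. The share over all genes tested was 5.09%. In PFDN2 alone the order was the opposite, a pattern of 5.44% of all genes tested. The DU145 control mean was above the PC3 control mean in 33 of the 40, and the 2 control groups enter the difference with opposite signs. The difference of responses on the log2 scale was 1.73 for HSPA8, 1.24 for HSPA6, 1.23 for HSPA1A, 1.12 for HSPA1B, 0.76 for DNAJA1 and 0.62 for HSP90AA1. It was 0.52 for HSPH1, 0.50 for HSF1, 0.45 for BAG3, 0.38 for HSPB1, 0.38 for AHSA1, 0.34 for HSPA4, 0.30 for CCT2, 0.26 for HSP90AB1 and 0.21 for CCT8, and -0.32 for PFDN2. None of these 16 passed edgeR's test of the difference (adjusted p from 0.419 to 0.6). Without OE replicate 2, the difference for HSPA8 was 1.14, from a fit with a lone OE library that cannot show the spread of its group. After an exchange of the controls between the lines, the difference changed sign in 10 of the 19 genes described library by library. The median difference of the inducible targets was then 0.0255, against 0.52 before.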

How the results depend on the processing

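Over all genes, the count called in PC3, DU145, the difference of responses and the controls was 6, 9, 7 and 13, against 190, 309, 410 and 357 with DESeq2. With the 4 libraries of a comparison alone it was 0 in DU145 and 20 between the controls, and 1 member, HSPA8, was called in PC3. Without the filter it was 4 in DU145, and with all 4 controls as 1 group, chosen after seeing the data, it was 5 there. On log2(FPKM + 0.1) it was 12 in PC3 and 25 between the controls, where log2(FPKM + 1) gave 23. With the controls exchanged it was 13 in PC3 and 16 in the difference, the median of ring and prefoldin genes was 0.0201 in DU145, -0.0571 in the difference and -0.0877 between the controls, and that of the inducible targets 0.0255 in the difference and -0.21 between the controls. The cause was not tested. The log2 differences of replicate 1 minus replicate 2, over 8261 genes, were correlated between groups, and r ran from -0.05 to 0.12. Same-numbered libraries thus shared little of their deviation over these genes. With the replicate block 0, 3, 3 and 3 genes and 0 members were called.

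Leaving out each library gave 6 to 27, 3 to 376, 11 to 323 and 4 to 114 genes called, and 0 to 1, 0 to 9, 0 to 8 and 0 to 4 members. The median of the inducible targets ran from 0.10 to 0.21, from -0.69 to -0.0832, from 0.33 to 0.95 and from 0.20 to 0.34, and that of ring and prefoldin genes from 0.000343 to 0.07, from -0.14 to 0.0793, from -0.0376 to 0.24 and from 0.03 to 0.16. The lowest count of a member in any library was 65, and the part of depth was not tested.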
